A study of Mus musculus with 4 samples.

Results

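Cell cycle and mitosis genes were examined in the livers of alcohol-fed mice with and without Brg1. The 47 genes were chosen by name: 7 cyclins, kinases and an E2F factor of the G1/S transition, 3 inhibitors of cyclin-dependent kinases, 13 replication genes and 24 mitosis genes. All 47 were found among the 22103 entries of the deposited expression table. Each was compared between Brg1 LKO livers and WT livers, phase by phase.

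Brg1, encoded by Smarca4, is the ATPase of a SWI/SNF chromatin remodeling complex. Whole livers of male mice, aged 8 weeks when liver injury was induced, were profiled by RNA sequencing, with 2 mice of each genotype. LKO mice carried floxed Smarca4 alleles (Smarca4 f/f) and Alb-Cre, so that the deletion depends on the albumin promoter. The study describes the deletion as specific to hepatocytes, and deletion in other liver cells was not examined here. WT mice were littermates, and the sources used here do not say whether they carried the floxed alleles. All 4 mice, controls included, received alcohol, for 15 days by the labels and as a chronic-plus-binge ethanol diet by the methods of the study, so no liver without alcohol enters the comparison.

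Cells enter the cycle when D and E cyclins activate Cdk4 and Cdk2, which release E2F factors to switch on replication genes. Mitosis genes are switched on later, through promoter elements named CHR and the CCAAT box, and their products build the spindle, attach chromosomes to it and trigger their separation. Hepatocytes of an adult liver are mostly quiescent and can re-enter the cycle after injury or loss of tissue. In whole tissue, fewer dividing cells and less RNA per dividing cell cannot be told apart.

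Smarca4 stood at 1.78 and 1.95 FPKM in WT mice and at 0.608 and 0.579 FPKM in LKO mice, where FPKM is a read level scaled to transcript length and library size. Its mean in LKO livers was 31.8% of that in WT livers, with a log2 difference of -1.50 (SE 0.34, unadjusted p = 0.000548 by limma). Reads were estimated from the steps of the FPKM values at 72599105 to 80935544 per liver. Albumin, the defining hepatocyte product, lay between 10710 and 12486 FPKM, so hepatocyte RNA was abundant in all 4 livers. Most genes were highest in the second mouse of either genotype: 42.1% of the genes tested peaked in WT2 and 41.0% in LKO2. Genes that averaged 0.1 FPKM or more numbered 12346, and 121 of them passed the threshold used here, an unadjusted p under 0.05 and a log2 difference beyond 1 in either direction, which is 0.98%. No gene passed after Benjamini-Hochberg adjustment over all genes in limma (247 genes had an unadjusted p under 0.05), and the lowest adjusted p was 0.541.

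Promoters are shown for 4 genes described below, to set the mitosis genes beside a replication gene. Each stretch runs from 120 bases before the transcription start to 10 bases from it, on the minus strand of GRCm38.p6, from RefSeq. Capitals mark the CCAAT box (CCAAT, or ATTGG when read from the other strand), the CHR (TTTGAA or TTCGAA) and the E2F motif (TTTCCCGC, TTTGGCGC, TTTCGCGC or TTTGCCGC), each searched on both strands. They lie at chr2:172370561-172370690 for Aurka, chr4:118437334-118437463 for Cdc20, chr10:69352903-69353032 for Cdk1 and chr1:128359696-128359825 for Mcm6.
Aurka: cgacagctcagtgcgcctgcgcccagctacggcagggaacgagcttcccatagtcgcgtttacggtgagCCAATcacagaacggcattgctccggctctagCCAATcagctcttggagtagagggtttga
Cdc20: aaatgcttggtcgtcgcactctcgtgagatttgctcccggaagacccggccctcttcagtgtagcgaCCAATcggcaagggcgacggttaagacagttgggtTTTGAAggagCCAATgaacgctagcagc
Cdk1: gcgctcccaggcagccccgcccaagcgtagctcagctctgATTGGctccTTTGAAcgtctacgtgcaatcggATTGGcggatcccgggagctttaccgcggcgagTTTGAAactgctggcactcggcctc
Mcm6: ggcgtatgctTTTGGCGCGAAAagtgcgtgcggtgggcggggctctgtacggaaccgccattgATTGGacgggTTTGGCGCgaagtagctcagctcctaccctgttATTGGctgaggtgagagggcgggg

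Aurka held a pair of CCAAT boxes in this stretch, and its CHR lay further on, 33 bases after the start. Cdc20 held a CHR 18 bases before the start, between CCAAT boxes that lay 53 and 8 bases before it. Cdk1 held CHR matches 71 and 15 bases before the start, and an E2F match lay outside this stretch, 131 bases before the start. Mcm6 held no CHR and had E2F matches 110, 106 and 47 bases before the start, of which the outer pair overlap on opposite strands.

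Over the full windows of 300 bases (250 before the start and 50 from it), 36 of the 47 genes had a promoter to search. The CHR was found in 14 of 18 mitosis genes (77.8%), in 2 of 11 replication genes (18.2%) and in 20.2% of the 17492 protein-coding genes. The CCAAT box was found in 16 of the 18 mitosis genes (88.9%) and in 8 of the 11 replication genes (72.7%). Of all coding genes, 42.3% held it. The E2F motif was found in 6 of the 11 replication genes (54.5%), in 1 of the 18 mitosis genes (5.56%) and in 3.29% of all coding genes. Mitosis and replication genes thus differed in the CHR and the E2F motif, while most genes of both held a CCAAT box. This describes their promoters, with no test of binding.

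Genes of the later phases had the lower levels. Mean levels over the 4 livers had a median of 1.42 FPKM in the 10 G1/S genes, inhibitors included, of 0.393 FPKM in the replication genes and of 0.0549 FPKM in the mitosis genes. The genes above 1 FPKM numbered 9, led by Cdk4 (27.4 FPKM), Cdkn1a (21.1 FPKM) and Ccnd1 (10.6 FPKM), and none was a mitosis gene. Among mitosis genes, levels ran from 0.00648 FPKM in Cenpe, a kinetochore motor, to 0.797 FPKM in Aurka, a spindle-pole kinase. The filter at a mean of 0.1 FPKM left 27 genes to test and set aside 20, of which 17 belonged to mitosis and 3 to replication.

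**Figure D1:**
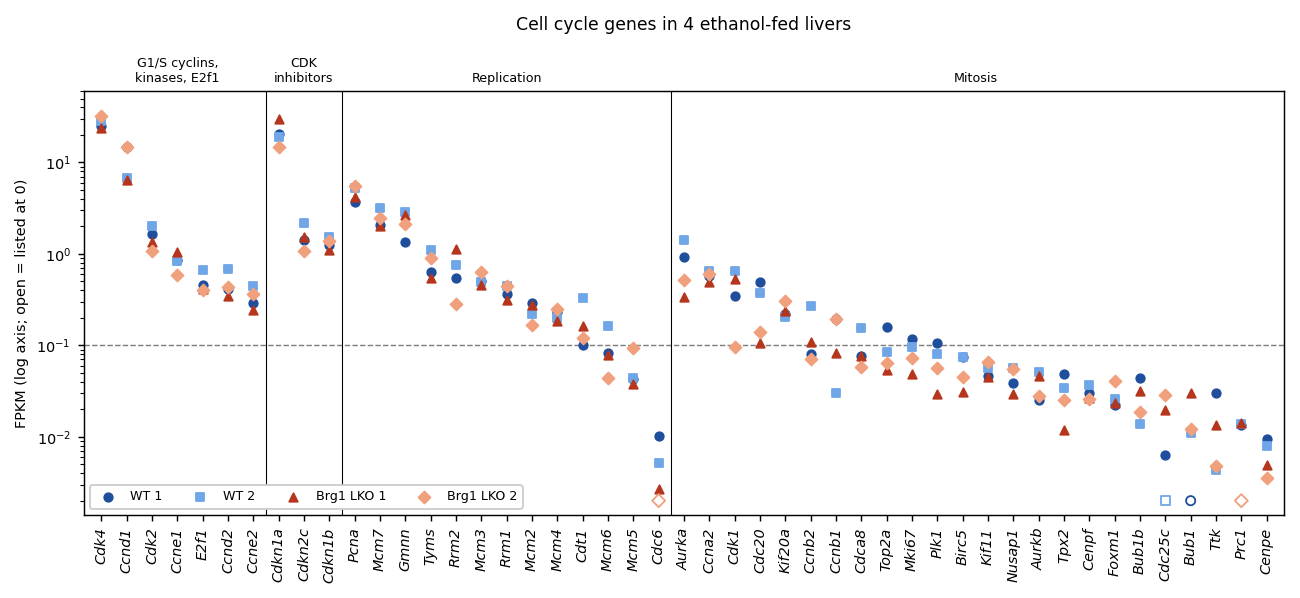
FPKM of the 47 genes in each liver, on a log axis, by phase, with a marker for each liver, open markers for genes listed at 0 and a dashed line at 0.1 FPKM. The 9 genes with a mean above 1 FPKM belong to the G1/S, inhibitor and replication groups, and 17 of the 24 mitosis genes lie below a mean of 0.1 FPKM.

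Of the 27 genes tested, 2 passed the threshold, Aurka and Cdc20, both lower in LKO livers, where 0.543% of all genes tested passed it as lower. None passed it as higher, against 0.437% of all genes. After Benjamini-Hochberg adjustment over all genes none of the 27 passed in limma, and the same 2 genes had an unadjusted p under 0.05 (2.0% of all genes did). The log2 differences of the 47 genes had a median of -0.10, and 34 were lower and 13 higher in LKO livers. The tested genes had a median of -0.16, beside -0.02 over all genes tested.

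**Figure D2:**
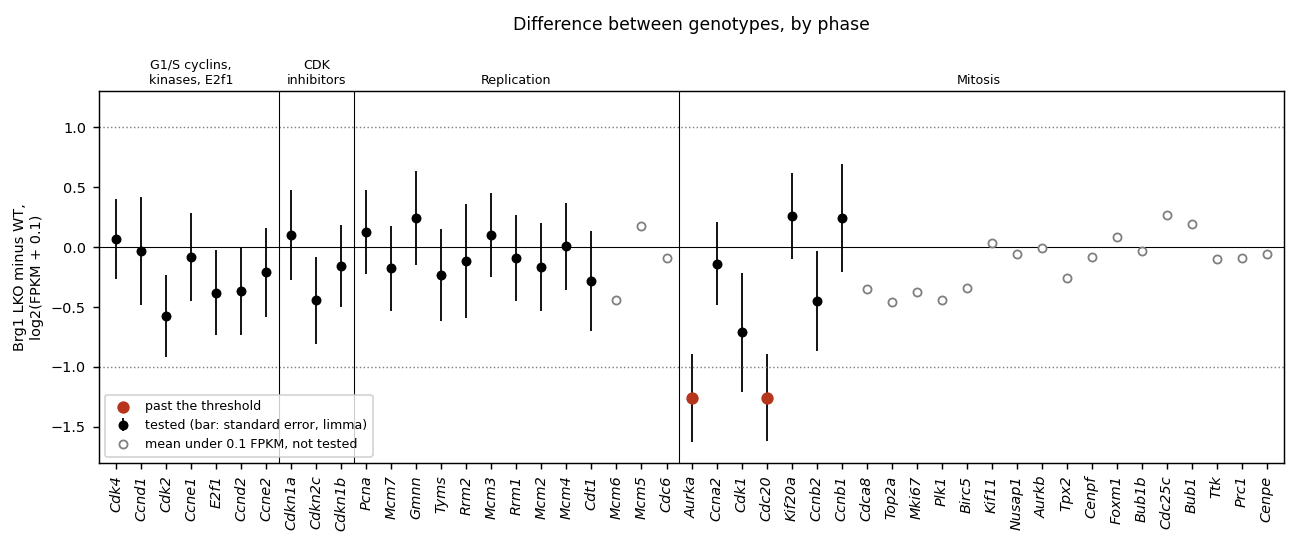
Log2 difference in log2(FPKM + 0.1), LKO against WT, for each of the 47 genes by phase, with the standard error of the limma fit for tested genes and open circles for genes under 0.1 FPKM. Aurka and Cdc20 lie beyond -1, and every other gene lies between -1 and 1.

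The genes that open the cycle did not pass the threshold, and their livers mostly overlapped between genotypes. Cyclin D1 (Ccnd1), which activates Cdk4 in early G1, stood at 14.6 and 6.73 FPKM in WT livers and at 6.42 and 14.7 FPKM in LKO livers. Each genotype thus held a high and a low liver, and the log2 difference was -0.03 (SE 0.45, unadjusted p = 0.945 by limma). The gene lies on the minus strand at chr7:144929931-144939869 and has 5 exons. Cyclin D2 (Ccnd2) stood at 0.412 and 0.678 FPKM in WT livers and at 0.348 and 0.435 FPKM in LKO livers, an overlapping pair of ranges (log2 difference -0.37, SE 0.37, unadjusted p = 0.334). Cdk4, their kinase partner and the highest of the 47 genes, lay between 23.9 and 32.4 FPKM in all 4 livers (log2 difference 0.07).

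Cdk2, the kinase of the E and A cyclins, was lower in both LKO livers than in both WT livers without passing the threshold. It stood at 1.65 and 2.02 FPKM in WT livers and at 1.34 and 1.06 FPKM in LKO livers, 65.5% of the WT mean (log2 difference -0.57, SE 0.34, unadjusted p = 0.117). The gene overlaps Pmel on the opposite strand. E2f1, an activator of replication genes, was ordered the same way, at 0.457 and 0.672 FPKM in WT livers and 0.409 and 0.400 FPKM in LKO livers (log2 difference -0.38, unadjusted p = 0.304). Cyclin E1 and cyclin E2 overlapped between the genotypes, with log2 differences of -0.09 and -0.21. Of the 7 genes in this group, 2 had both LKO livers below both WT livers and 0 had them above, where 10.6% and 11.5% of all entries above 0 in a liver were so ordered.

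The 3 inhibitors did not pass the threshold either. Cdkn1a, which encodes p21, a target of p53, stood at 20.4 and 19.1 FPKM in WT livers and at 30.0 and 14.9 FPKM in LKO livers. The LKO livers lay on either side of both WT livers, and the means were 19.7 ± 0.931 and 22.4 ± 10.6 FPKM (SD, n = 2 each), with a log2 difference of 0.10 (SE 0.38, unadjusted p = 0.789 by limma). Without LKO1 this difference was -0.40. Cdkn1b, which encodes p27, lay at 1.25 and 1.53 FPKM in WT livers and at 1.09 and 1.39 FPKM in LKO livers (log2 difference -0.16, SE 0.34, unadjusted p = 0.649). Cdkn2c, an inhibitor of Cdk4 and Cdk6, stood at 1.44 and 2.19 FPKM in WT livers and at 1.52 and 1.07 FPKM in LKO livers (log2 difference -0.44, SE 0.36, unadjusted p = 0.241). The ranges of both overlapped between the genotypes.

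Replication genes showed no shared direction. Of the 13, 8 were lower and 5 higher in LKO livers, with a median log2 difference of -0.09 and a range from -0.44 in Mcm6 to 0.25 in Gmnn, and none of the 10 tested passed the threshold. Their summed level was 9.87 and 15.0 FPKM in WT livers and 12.0 and 13.1 FPKM in LKO livers, so that both LKO livers lay between the WT livers.

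Pcna, the sliding clamp of the replication polymerases, stood at 3.69 and 5.20 FPKM in WT livers and at 4.14 and 5.54 FPKM in LKO livers (log2 difference 0.13, SE 0.35, unadjusted p = 0.725 by limma). Mcm7, a subunit of the MCM2-7 helicase, stood at 2.04 and 3.17 FPKM in WT livers and at 2.02 and 2.48 FPKM in LKO livers (log2 difference -0.18, SE 0.36, unadjusted p = 0.625). In both genes the second mouse of each genotype was the higher. Gmnn, which encodes geminin, the inhibitor of the loading factor Cdt1, stood at 1.34 and 2.88 FPKM in WT livers and at 2.63 and 2.1 FPKM in LKO livers (log2 difference 0.25, SE 0.39, unadjusted p = 0.540). The WT livers alone spanned the whole range of geminin. Mcm7 hosts the microRNAs Mir106b, Mir25 and Mir93 on its own strand and overlaps Ap4m1 and Cops6 on the other.

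Within the helicase, log2 differences were -0.17 for Mcm2, 0.10 for Mcm3 and 0.01 for Mcm4. Mcm6 lay under the filter and was ordered without overlap, at an estimated 29 and 56 reads in WT livers and 27 and 14 reads in LKO livers. Its highest LKO liver and its lowest WT liver thus differed by less than counting error. Cdc6, which loads the helicase, was listed at 0 in LKO2 and had an estimated 4, 2 and 1 reads in WT1, WT2 and LKO1, at or near 3 reads, the number that an observed 0 cannot exclude. Rrm2, the regulated subunit of ribonucleotide reductase, was singled out after its values were seen, because the LKO livers were at the extremes. It stood at 0.541 and 0.759 FPKM in WT livers, at 1.13 FPKM in LKO1 and at 0.283 FPKM in LKO2 (log2 difference -0.12, unadjusted p = 0.811).

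Mitosis genes leaned lower in LKO livers. Of the 24, 18 (75.0%) were lower and 6 higher, where 52.2% of all entries above 0 in a liver were lower. Of the 7 tested, 5 were lower, beside 53.9% of all genes tested. Both LKO livers lay below both WT livers in 10 of the 24 (41.7%) and above them in 3 (12.5%), again beside 10.6% and 11.5% of all entries above 0 in a liver. The genes below were Aurka, Cdc20, Mki67, Top2a, Plk1, Birc5, Cdca8, Tpx2, Cenpe and Cenpf. The genes above were Cdc25c, Bub1 and Kif20a, and the remaining 11 overlapped. Genes of mitosis are transcribed together in dividing cells, so the 24 are not independent readings of the livers.

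Aurka, the kinase that matures centrosomes and builds the spindle, stood at 0.927 and 1.41 FPKM in WT livers and at 0.336 and 0.521 FPKM in LKO livers. An estimated 143 and 214 reads lay behind the WT values and 50 and 72 reads behind the LKO values. The genotypes did not overlap, and the means were 1.17 ± 0.338 and 0.428 ± 0.131 FPKM (SD, n = 2 each), 2.72-fold lower in LKO livers. The log2 difference on the log2(FPKM + 0.1) scale was -1.26 (SE 0.37, unadjusted p = 0.00424 and Benjamini-Hochberg adjusted p = 1 by limma). The gene (ENSMUST00000109139) lies on the minus strand at chr2:172356196-172370506 and has 9 exons.

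Cdc20, the activator of the anaphase-promoting complex, stood at 0.489 and 0.377 FPKM in WT livers and at 0.107 and 0.138 FPKM in LKO livers. The estimated reads were 71 and 54 in WT livers and 15 and 18 in LKO livers. The means, 0.433 ± 0.0794 and 0.123 ± 0.0221 FPKM (SD, n = 2 each), differed 3.53-fold without overlap (log2 difference -1.26, SE 0.36, unadjusted p = 0.00375 and Benjamini-Hochberg adjusted p = 1 by limma). The gene (ENSMUST00000006565) lies on the minus strand at chr4:118432901-118437352, has 10 exons and overlaps Elovl1 on the opposite strand. Elovl1 stood at 4.43 and 5.04 FPKM in WT livers and at 3.25 and 5.06 FPKM in LKO livers, with overlap, and whether its reads were told apart from those of Cdc20 is not stated.

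Both calls depended on a single WT liver and on the scale. Without WT2 the log2 difference of Aurka was -0.98, and without WT1 that of Cdc20 was -1.10 with unadjusted p = 0.0604 in limma, so each then missed the threshold. With a pseudocount of 1 FPKM in place of 0.1 the log2 differences were -0.60 and -0.35, and neither passed. For Cdc20 this outcome was fixed in advance. At its WT mean of 0.433 FPKM, even 0 in both LKO livers could not reach -1 on that scale.

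The other genes ordered in this way lay under the filter of 0.1 FPKM and were not tested. Mki67, which encodes the proliferation marker Ki-67, was singled out with Top2a, Plk1, Birc5 and Tpx2 after their values were seen. It had an estimated 96 and 78 reads in WT livers and 38 and 53 reads in LKO livers, 56.2% of the WT mean in FPKM. Top2a, the topoisomerase that untangles chromosomes, had 67 and 35 reads in WT livers and 22 and 24 in LKO livers. In reads, Mki67 was no thinner than Cdc20 in any liver, and Top2a was thinner in both WT livers but not in the LKO livers. The length of the transcripts enters the FPKM on which the filter acts. Plk1, a kinase of mitotic entry and spindle assembly, had 19 and 14 reads in WT livers and 5 and 9 in LKO livers. Plk1 was thus ordered as Aurka was, on far fewer reads. Birc5, the survivin subunit of the chromosomal passenger complex, had 20 reads in each WT liver and 8 and 11 in the LKO livers. Tpx2, the activator of the Aurka kinase on the spindle, had 17 and 12 reads in WT livers and 4 and 8 in LKO livers.

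Counting error is large at 20 reads or fewer, and the order of 4 livers is then a weak description. In Cdca8, another passenger subunit, LKO1 had 20 estimated reads and WT1 had 21. Of the 3 genes ordered the other way, Kif20a, a motor of the spindle midzone, was tested, at 55 and 51 reads in WT livers and 57 and 70 in LKO livers (log2 difference 0.26, SE 0.36, unadjusted p = 0.487 by limma). Cdc25c, a phosphatase that activates Cdk1, had 1 and 0 reads in WT livers and 3 and 4 in LKO livers. Bub1, a spindle checkpoint kinase, had 0 and 3 reads in WT livers and 8 and 3 in LKO livers. Prc1, which bundles the spindle midzone, was listed at 0 in LKO2 and had 4 reads in each other liver.

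Cdk1 and its cyclins did not share the order of Aurka. Cdk1, the kinase of mitotic entry, stood at 0.347 and 0.642 FPKM in WT livers, at 0.532 FPKM in LKO1 and at 0.0955 FPKM in LKO2. LKO1 lay between the WT livers and LKO2 below them, so the log2 difference of -0.71 (SE 0.49, unadjusted p = 0.172 by limma) was set by LKO2 and was 0.13 without it. Ccna2, which encodes cyclin A2, was nearly level, at 0.579 and 0.654 FPKM in WT livers and 0.496 and 0.609 FPKM in LKO livers (log2 difference -0.14, SE 0.35, unadjusted p = 0.694). It overlaps Exosc9 on the opposite strand. The B cyclins overlapped between the genotypes, with log2 differences of 0.24 for Ccnb1 and -0.45 for Ccnb2, both of which have annotated pseudogene copies.

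Summed over the 24 mitosis genes, the level was 3.68 and 4.38 FPKM in WT livers and 2.43 and 2.54 FPKM in LKO livers, 61.6% of the WT mean. Without Aurka and Cdc20 the sum was 2.27 and 2.60 FPKM in WT livers and 1.99 and 1.88 FPKM in LKO livers, 79.5% of the WT mean. LKO livers were below WT livers in both sums. Of the remaining 22 genes, 8 (36.4%) had both LKO livers below both WT livers and 3 (13.6%) had them above, beside 10.6% and 11.5% of all entries. Summed over all 47 genes, the level was 79.7 and 81.8 FPKM in WT livers and 80.7 and 82.9 FPKM in LKO livers, a sum that Cdk4, Cdkn1a and Ccnd1 dominate.

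**Figure D3:**
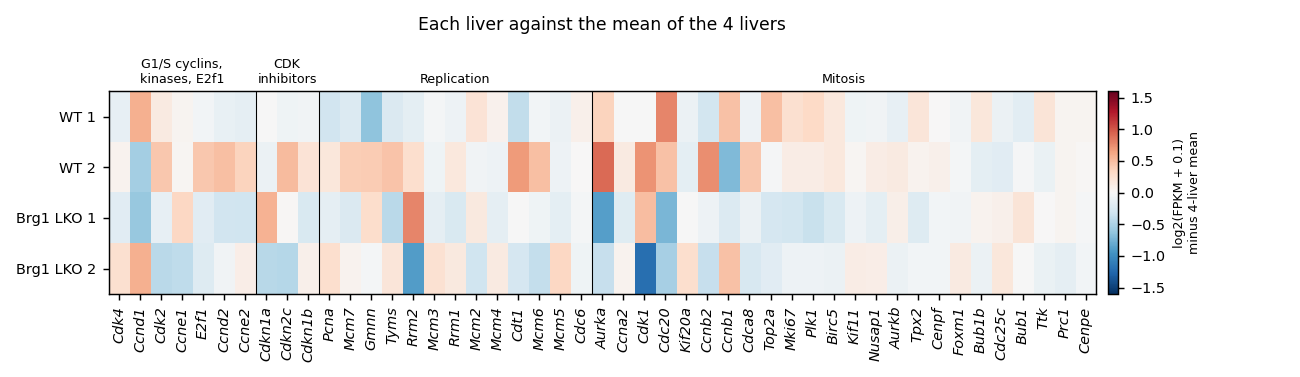
log2(FPKM + 0.1) of each of the 47 genes in each liver minus its mean over the 4 livers, by phase, with colour from blue (lower) to red (higher). Aurka and Cdc20 are red in both WT livers and blue in both LKO livers, and Cdk1 is blue in LKO2 only.

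WT2 was highest in 21 of the 47 genes, LKO2 in 11, WT1 in 10 and LKO1 in 5. Among the 24 mitosis genes, of which 17 lay under the filter, WT1 was highest in 8 and WT2 in 9. Of the 27 genes of the set that were tested, 2 (7.41%) were highest in WT1, beside 4.70% of all genes tested. The livers were not equal in scale: median-ratio factors were 0.909 in WT1, 1.13 in WT2, 0.882 in LKO1 and 1.11 in LKO2. After division by these factors 10 mitosis genes again had both LKO livers below both WT livers and 5 had them above, beside 13.8% and 14.4% of all entries. After quantile normalization the counts were 9 below and 5 above, beside 15.1% and 13.4% of all entries. Among the 10 G1/S genes, inhibitors included, the count below was 4 (40.0%) after either rescaling, namely Ccnd2, Cdk2, E2f1 and Cdkn1b, a share near that of the mitosis genes, and 0 were above.

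Macrophage markers had the opposite sign: all 10 had higher means in LKO livers and 2 passed the threshold as higher (0.437% of all genes tested did), with summed levels of 44.9 and 45.0 FPKM in WT livers and 58.0 and 119 FPKM in LKO livers. Both LKO livers lay above both WT livers in 8 of the 10, beside 11.5% of all entries. Endothelial markers were lower in LKO livers in 9 of 10, beside 52.2% of all entries. Both LKO livers lay below both WT livers in 1 of 10, near the 10.6% of all entries. They summed to 32.8 and 34.8 FPKM in WT livers and to 25.7 and 34.6 FPKM in LKO livers. Lymphocyte markers summed to between 0.256 and 0.979 FPKM, near 0. Of these 10, 9 were higher in LKO livers, 5 had both LKO livers above both WT livers and 1 had them below, beside 11.5% and 10.6% of all entries. Cholangiocyte markers, like the endothelial markers, mostly had the same sign as the mitosis genes. Of these, 7 of 8 were lower in LKO livers, and 4 of 8 had both LKO livers below both WT livers, beside 10.6% of all entries. Their sum was 5.12 and 5.76 FPKM in WT livers and 4.17 and 4.45 FPKM in LKO livers, 79.2% of the WT mean, with Krt7 between 0.0269 and 0.0825 FPKM and Cftr listed at 0 in 3 livers. Stellate markers summed to 98.9 and 125 FPKM in WT livers and to 95 and 120 FPKM in LKO livers, and neutrophil and myeloid precursor markers to 12.9 and 5.03 FPKM and to 16.8 and 11.2 FPKM. Of the 10 neutrophil and myeloid precursor markers, 9 were higher in LKO livers, and 6 had both LKO livers above both WT livers, beside 11.5% of all entries. Those 6 lay under the filter at few or 0 reads and were not tested, and the 4 tested markers overlapped between the genotypes. Ly6g had an estimated 1 and 0 reads in WT livers and 4 and 1 in LKO livers. By flow cytometry and staining, the study found fewer Ly6G+ neutrophils in LKO livers, a count of cells and not of RNA. The part of these cell types in the mitosis values was not tested.

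A wider list held 119 other cell cycle genes, of which 80 could be tested. Of these, 3 passed the threshold, all lower in LKO livers, and 0 passed as higher, where 0.543% and 0.437% of all genes tested did. Of the 119, 27 had both LKO livers below both WT livers and 4 had them above, beside 10.6% and 11.5% of all entries above 0 in a liver. None passed after Benjamini-Hochberg adjustment in limma, and 5 of the 80 had an unadjusted p under 0.05, beside 2.0% of all genes tested.

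Gins2, a subunit of the GINS complex of the replication helicase, stood at 2.72 and 3.15 FPKM in WT livers and at 1.44 and 1.09 FPKM in LKO livers, 43.2% of the WT mean (log2 difference -1.16, SE 0.34, unadjusted p = 0.00448 by limma). It overlaps Gse1 on the opposite strand, which stood at 1.51 and 1.66 FPKM in WT livers and at 0.849 and 0.605 FPKM in LKO livers. Both genes of the locus were thus lower in both LKO livers. Gse1 itself passed the threshold (log2 difference -1.04, SE 0.35, unadjusted p = 0.00949 by limma). Whether the reads of Gins2 were told apart from those of Gse1 is not stated. Ect2, which positions the cleavage furrow, stood at 0.302 and 0.429 FPKM in WT livers and at 0.0970 and 0.165 FPKM in LKO livers, also without overlap (log2 difference -1.01, SE 0.37, unadjusted p = 0.0167 by limma). Pttg1, which encodes securin, the guard of separase, stood at 0.561 and 2.03 FPKM in WT livers and at 0.619 and 0.272 FPKM in LKO livers. LKO1 thus lay above WT1 although the gene passed the threshold (log2 difference -1.20, SE 0.50, unadjusted p = 0.0316 by limma). After median-ratio scaling or quantile normalization Gins2 was the single one of the 3 to pass, and without WT2 none did.

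By phase, none of the 22 other G1/S genes tested passed. Over all 25 listed, log2 differences ran from -0.56 in Cdkn2a, which encodes the p16 and p19 inhibitors, lay under the filter and had 2, 5, 0 and 0 estimated reads in WT1, WT2, LKO1 and LKO2, to 0.69 in Cks1b, a small subunit of cyclin-dependent kinases. Cks1b stood at 2.18 and 3.07 FPKM in WT livers and at 3.48 and 5.13 FPKM in LKO livers, without overlap and short of the threshold (unadjusted p = 0.0762 by limma). Among the other replication genes, the highest difference was 0.53, in the checkpoint kinase Chek1, which overlapped between the genotypes. Among the 51 other mitosis genes it was 0.72, in Ccnf, where LKO1 alone stood high at 1.73 FPKM and the other livers lay between 0.369 and 0.472 FPKM. Both LKO livers lay below both WT livers in 15 of these 51 (29.4%), where 10.6% of all entries were so ordered. The count was 13 (25.5%) after median-ratio scaling, beside 13.8% of all entries, and 12 (23.5%) after quantile normalization, beside 15.1%, so that the set and the background came closer.

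Targets of p53 other than Cdkn1a did not pass the threshold in any of 13 genes tested. Btg2, an antiproliferative gene, came nearest, at 14.6 and 9.30 FPKM in WT livers and 23.3 and 22.4 FPKM in LKO livers (log2 difference 0.96, SE 0.35, unadjusted p = 0.0153 by limma). The lowest was Sesn2, at -0.57, a stress-induced gene with overlap between the genotypes.

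**Figure D4:**
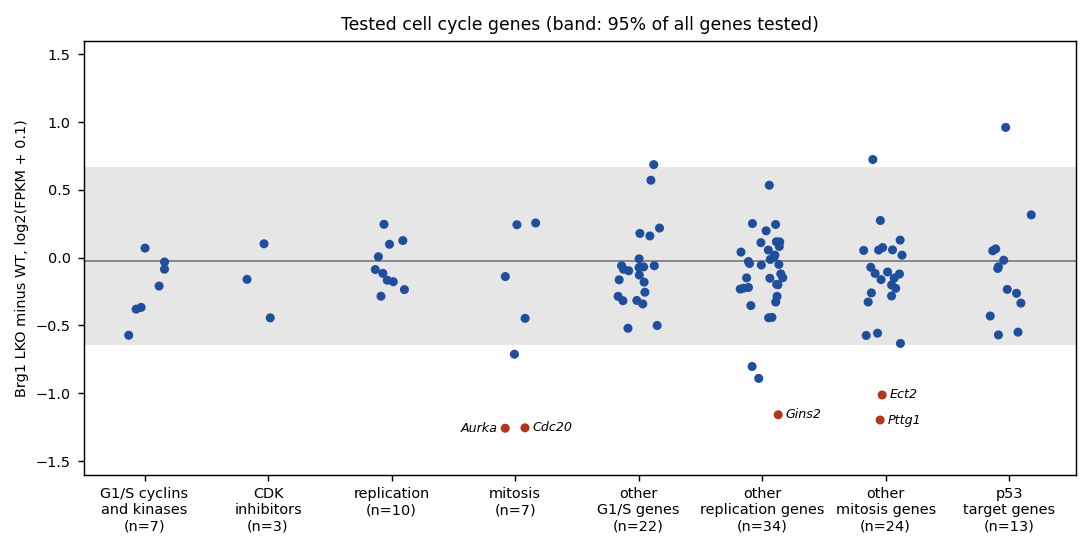
Log2 difference, LKO against WT, of the tested genes of the set and of the wider lists, each point a gene, with a line at the median of all genes tested and a grey band over the middle 95% of them. Aurka, Cdc20, Gins2, Ect2 and Pttg1 lie below -1, and no gene lies above 1.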

How the data were processed

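RNA of 4 whole livers was measured, 2 WT and 2 LKO. The authors deposited FPKM values, made with Cufflinks by the study's methods after trimming (Trimmomatic) and alignment to GRCm38, while the submitters' processing notes name HISAT2 2.0.4 and StringTie 2.1.4. The labels describe BGIseq libraries and the methods a stranded Illumina kit, so the use of strand in counting is uncertain. Deposited columns for other samples numbered 0.

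Here 27 gene symbols turned into dates were restored. The 50 lower entries of repeated symbols were kept under separate names, and the highest entry stood for the gene. Genes that averaged 0.1 FPKM or more were tested with limma 3.58.1 (R 4.3.3, lmFit and eBayes with trend) on log2(FPKM + 0.1), which understates changes of low genes. The threshold was an unadjusted p under 0.05 and a log2 difference beyond 1. With 2 mice a group, an exact two-sided permutation test cannot go below p = 0.333. Depth was estimated from FPKM steps with GENCODE M21 lengths: 88.4% to 89.5% of values up to 20 reads were whole within 0.1 read, and read estimates cover counting error only.

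Genes were named if past the threshold, or without overlap and with a log2 difference beyond 0.5, with the inhibitors, D cyclins, the highest replication and mitosis genes, genes at 0 in a liver and the extremes of each wider list. The genes and lists were chosen with earlier results of these data known. The alternatives were other pseudocounts, filters and scalings, no trend, a replicate block, each liver left out and voom on the estimated reads. Markers of a further cell type are not reported here.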

Additional observations from a re-analysis of the deposited data

How the results depend on the processing

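With 2 mice a group, calls moved with the settings. A pseudocount of 1 FPKM kept genes as low as Cdc20 from reaching a log2 difference of -1 at any LKO level. Of the 47 genes, 2 passed the threshold, and 0 with a pseudocount of 1 FPKM or a filter at a mean of 1 FPKM, which neither Aurka nor Cdc20 reaches, and 1 to 3 when a liver was left out, when the lone liver of a group is assumed to vary like the other group. Of all genes, 121 passed, and 18 with a pseudocount of 1 FPKM, 80 with no filter, 68 with the filter at 1 FPKM and 78 to 552 when a liver was left out (78 without WT2, 231 without WT1, 552 without LKO1 and 450 without LKO2). Of the other cell cycle genes, 3 passed, and 0 with a pseudocount of 1 FPKM, 5 with 0.01 FPKM, 1 with the filter at 1 FPKM, 1 with median-ratio scaling, 1 with quantile normalization and 0 to 5 when a liver was left out (0 without WT2, 5 without LKO1).

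Adjusted p-values for Aurka and Cdc20 (limma, Benjamini-Hochberg) were near 1 in all settings except without LKO1, at 0.168 and 0.0793, and without LKO2, at 0.00781 and 0.0295. Aurka missed the threshold without WT2 and Cdc20 without WT1. Leaving out WT1, WT2, LKO1 or LKO2 shifted the median of all genes tested to -0.17, 0.12, 0.12 or -0.17. The median log2 difference ranged from -0.38 to -0.078 in G1/S genes, from -0.22 to 0.10 in replication genes and from -0.15 to -0.089 in mitosis genes when a liver was left out. In mitosis genes it was -0.15 without WT1 and -0.090 without LKO2, not below the median of all genes tested in these settings. It was -0.089 without WT2 and -0.13 without LKO1, below that median. The sets are unlike: the mitosis median takes in 17 genes under the filter, whose differences the pseudocount shrinks. The median of all genes tested leaves such genes out. The mitosis median was -0.011 with a pseudocount of 1 FPKM and -0.38 with 0.01 FPKM. Directions turned when a liver was left out in Ccnd1 (-0.62 to 0.56), Cdkn1a (-0.40 to 0.60), Gmnn (-0.28 to 0.77), Mcm7 (-0.48 to 0.13), Pcna (-0.12 to 0.37) and Cdk1 (-1.56 to 0.13, past the threshold without LKO1). Ccnd1 was at 0.0011 with median-ratio scaling. Of 212 values of named genes under alternatives, 197 kept their direction and side of the threshold. Part of this was fixed in advance, because other filters, no trend and the replicate block leave the log2 difference unchanged. Genes under the filter were mostly counted by direction alone. The cause of the changes was not tested.

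Same-numbered livers share only a number (correlation of deviations 0.031). With a replicate block, 2 of the 47 genes, 108 of all genes and 2 of the other cell cycle genes passed. Voom on estimated reads, added after seeing the data, passed 2, 139 and 2.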
